A study of Homo sapiens with 2 samples.

Results

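The genes described here are those that were nearly lost from the RNA of SAS cells after KDM4C knockdown. SAS cells were established from a tongue carcinoma of squamous type, and their RNA was sequenced after infection with a pLKO.1 hairpin vector against KDM4C (shKDM4C) or with the control pLKO.1 (LKO), to ask how KDM4C affects metastasis. Both lines shared the same parental cells and medium, and each condition is 1 library made from poly(A) RNA. Members were selected on the raw counts themselves: an autosomal gene that GENCODE classes as protein-coding or as a long noncoding RNA (lncRNA), with at least 20 counts in LKO and with shKDM4C at most 15% of LKO. Of the 58884 rows of the count table, 33562 were autosomal genes of these classes, 14108 of them had at least 20 LKO counts and are called candidates below, and 75 were members, 49 protein-coding and 26 lncRNA. Members therefore make up 0.532% of candidates, with 0.405% of the protein-coding and 1.29% of the lncRNA candidates. Since the counts chose the members, every ratio given for a member is a description, and with 1 library per condition it has no replicate check.

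KDM4C is a demethylase that removes methyl groups from lysines of histone H3, among them a mark of silent chromatin. A gene can meet a rule of this kind with many reads in the control or with a handful, so counts are given for the members described, with the scaled level for those with many reads. Ratios below compare shKDM4C with LKO after scaling by TMM effective library sizes, which turns the raw limit of 15% into a scaled level of 18.01%. Each comes with a 95% counting interval, which covers counting error only, because nothing here measures the spread between cultures and PCR copies are not independent molecules.

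The libraries held 50627096 counts for shKDM4C and 57626616 for LKO. KDM4C itself had 242 counts in shKDM4C and 1047 in LKO, a log2 ratio of -1.85 (interval -2.06 to -1.65), so that the knockdown left part of its RNA. All 22 squamous epithelial markers had at least 1 count in each library, with summed levels of 3722 CPM in shKDM4C and 3378 CPM in LKO. Markers of fibroblasts summed to 9.05 CPM in shKDM4C and 7.08 CPM in LKO, those of endothelium to 8.32 and 6.25 CPM in the same order, and those of blood leukocytes to 0.832 CPM in shKDM4C and 0.355 CPM in LKO. Over all 18078 genes with at least 20 counts in the libraries together, 7.49% were at least 2-fold lower in shKDM4C with an interval wholly below no change, and 7.83% were at least 2-fold higher with an interval wholly above it. The rule with the libraries exchanged, LKO at most 15% of shKDM4C, took 97 of 13947 genes, or 0.695%. With TMM-scaled counts in place of raw counts the rule took 50 genes and the exchanged rule 123, so near loss after the knockdown was not the more frequent of these directions on either scale.

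Most members were rare transcripts to begin with. Their LKO counts had a median of 31, from 20 to 7939, while those of all candidates had a median of 976.5. Their shKDM4C counts had a median of 3, from 0 to 966. Per length, the members had a median of 0.197 RPKM in LKO against 3.03 RPKM in all candidates, and 8 of them exceeded 1 RPKM. Together the members took 0.0035% of the shKDM4C counts and 0.0271% of the LKO counts, and INSIG1 alone gave 966 of their 1786 counts in shKDM4C and 7939 of their 15591 in LKO. Their median log2 ratio was -2.84, or -2.77 with the 4 members at 0 placed at a floor of 3 counts, and that of all candidates was -0.060.

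**Figure D1:**
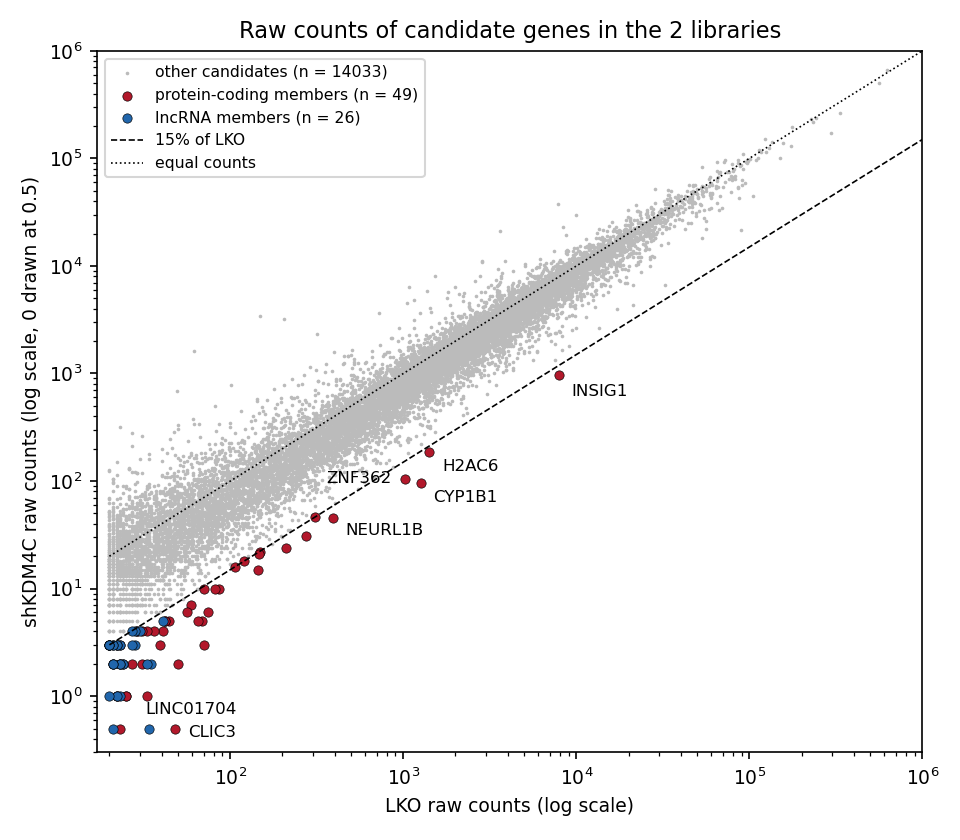
Raw counts of the 14108 candidates, with LKO on the horizontal and shKDM4C on the vertical axis, both on a log scale and with 0 drawn at 0.5. Members (red, protein-coding, and blue, lncRNA) lie on or below the dashed line at 15% of LKO, and all but a few are crowded at the low end, where INSIG1 with 966 counts in shKDM4C and 7939 in LKO stands apart.

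The share of candidates that met the rule differed by LKO count. Among candidates with 20 to 49 LKO counts, 52 of 1819 were members (2.86%, exact binomial interval 2.14% to 3.73%). The share was 0.814% at 50 to 99 LKO counts, 0.483% from 100 to under 200, 0.257% from 200 to under 500 and 0.0472% at 500 and more, where 4 of 8466 were members. At 20 LKO counts the rule asks for 3 or fewer shKDM4C counts. All 26 lncRNA members had 20 to 41 LKO counts, and in the bin of 20 to 49 their share of candidates, 2.77%, was close to the 2.95% of protein-coding genes, with overlapping intervals of 1.82% to 4.03% and 1.94% to 4.30%. Only 13 members reached 100 LKO counts and 8 reached 200.

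**Figure D2:**
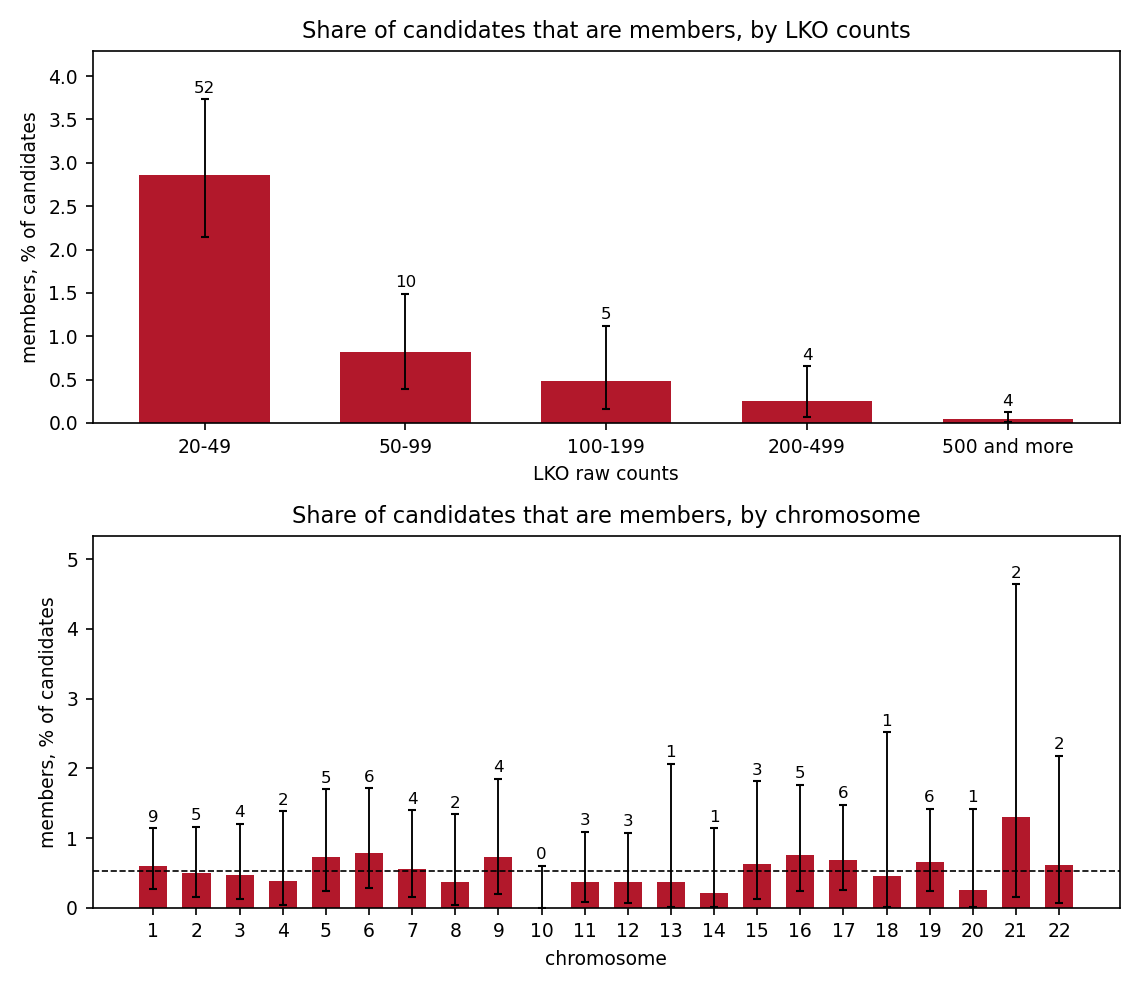
Share of candidates that were members (bars, in percent, with exact 95% binomial intervals and the number of members above each), by LKO raw counts in the upper panel and by chromosome in the lower, where the dashed line marks the share over all autosomes. The share is 2.86% at 20 to 49 LKO counts and 0.0472% at 500 and more, while the intervals of the chromosomes overlap each other.

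The members with the largest counts included a regulator of sterol synthesis and an oxidative enzyme. INSIG1 is an endoplasmic reticulum protein that retains the precursors of the SREBP transcription factors when sterols are plentiful, and it is itself an SREBP target. It had 966 counts in shKDM4C against 7939 in LKO, or 5.37 against 36.7 RPKM, a scaled level of 14.6% (interval 13.7% to 15.6%), and it overlaps no other annotated gene. Its relative INSIG2 had 2198 counts in shKDM4C and 2209 in LKO. Of 35 tested sterol and SREBP target genes, 18 were at least 2-fold lower and 0 higher, with a median log2 ratio of -1.02. INSIG1 was the only member among them. Over all tested genes 7.49% were at least 2-fold lower and 7.83% higher, with a median log2 ratio of -0.0094. That is the background for each gene list below, and all lists were chosen with earlier results of these data known. SREBF1, which encodes an SREBP, had 411 counts in shKDM4C and 2220 in LKO, and MVK, mevalonate kinase, had 271 and 1308 in the same order. The gene spans chr7:155297776-155310235 of GRCh38 on the plus strand. The 250 bases before its RefSeq start (GRCh38.p14, chr7:155297628-155297877) are shown because it carries most of the members' counts, with 4 words on either strand in capitals, namely CCAAT (the CCAAT box), GCGTG (the core of the dioxin response element), CACGTG (an E-box) and TATAAA (the TATA box):
INSIG1: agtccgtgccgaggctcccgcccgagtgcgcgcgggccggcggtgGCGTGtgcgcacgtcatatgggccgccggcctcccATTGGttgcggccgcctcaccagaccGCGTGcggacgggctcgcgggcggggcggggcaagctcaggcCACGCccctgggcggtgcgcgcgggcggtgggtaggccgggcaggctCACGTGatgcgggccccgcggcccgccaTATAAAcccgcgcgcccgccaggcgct
A TATAAA begins 27 bases before the start and the palindrome CACGTG begins 55 bases before it.

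CYP1B1, a cytochrome P450 that oxidises polycyclic aromatic hydrocarbons and estrogens, had 95 counts in shKDM4C against 1260 in LKO, a scaled level of 9.05% (interval 7.27% to 11.2%). It is a classical target of the dioxin receptor. Of 9 tested targets 2 were at least 2-fold lower, CYP1B1 and the amino acid transporter gene SLC7A5, and 0 were higher. Of all tested genes 7.49% were lower and 7.83% higher. CYP1A1, the other much studied target, had 74 counts in shKDM4C and 90 in LKO. The antisense gene CYP1B1-AS1, which shares 678 exon bases with CYP1B1, had 6 counts in shKDM4C and 29 in LKO. PLA2G7 encodes a phospholipase that inactivates platelet-activating factor, and it had 0 counts in shKDM4C and 23 in LKO, at least 6.38-fold lower against a floor of 3 counts, with an upper bound of the counting interval at 20.9% of LKO.

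Histone and zinc finger genes were another group, in which H2AC6 and ZNF362 had many reads and the other 3 members few. H2AC6 encodes a replication-dependent histone H2A and had 186 counts in shKDM4C against 1414 in LKO, a scaled level of 15.8% (interval 13.5% to 18.4%). H2AC13, another H2A gene of chromosome 6, had 4 counts in shKDM4C and 31 in LKO (interval of the level 3.97% to 43.8%). Replication-dependent histone transcripts mostly lack a poly(A) tail, so that these libraries sample a small part of them. Of 30 tested genes of that kind, 5 were at least 2-fold lower and 3 higher, with a median log2 ratio of 0.11. H2BC9 had 110 counts in shKDM4C and 372 in LKO and H3C8 had 60 and 181 in the same order, whereas H2BC21 had 44 in shKDM4C and 25 in LKO. The 250 bases before the starts of the member histone genes (RefSeq, GRCh38.p14, plus strand, chr6:26123922-26124171 and chr6:27807923-27808172) are shown because these members share a promoter layout, with CCAAT and TATAAA on either strand, and in H2AC6 also a GATA word on the minus strand that runs on from one of them, in capitals:
H2AC6: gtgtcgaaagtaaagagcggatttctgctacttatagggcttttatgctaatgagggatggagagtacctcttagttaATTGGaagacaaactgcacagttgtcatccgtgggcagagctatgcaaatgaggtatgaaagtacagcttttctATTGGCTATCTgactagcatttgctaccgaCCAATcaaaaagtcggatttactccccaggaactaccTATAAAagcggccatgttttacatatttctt
H2AC13: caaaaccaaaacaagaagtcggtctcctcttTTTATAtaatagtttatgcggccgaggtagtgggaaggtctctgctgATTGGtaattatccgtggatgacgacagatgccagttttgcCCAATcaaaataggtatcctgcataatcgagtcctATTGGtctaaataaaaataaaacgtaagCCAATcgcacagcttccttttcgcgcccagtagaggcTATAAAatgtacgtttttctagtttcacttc
In both, a TATAAA begins 31 bases and a CCAAT 68 bases before the start. Of 20 histone promoters of candidates, these members included, 9 held TATAAA between 40 and 15 bases before the start, and 17 held CCAAT anywhere on either strand. ZNF362, a zinc finger gene on chromosome 1, had 104 counts in shKDM4C against 1025 in LKO, a scaled level of 12.2% (interval 9.86% to 14.9%). ZNF384, a related gene, had 1478 counts in shKDM4C and 1957 in LKO. The zinc finger genes ZNF850 and ZNF497 had 2 and 1 counts in shKDM4C, against 23 and 22 in LKO.

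**Figure D3:**
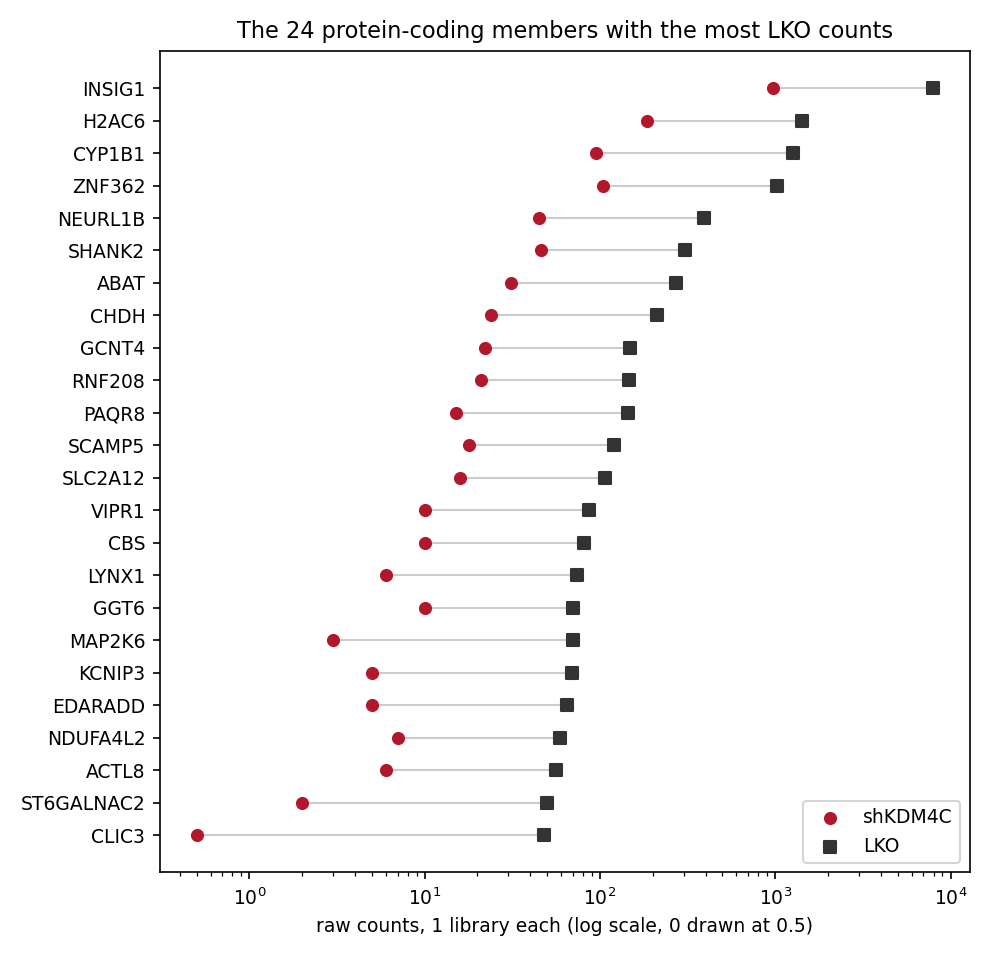
Raw counts in shKDM4C (red circles) and LKO (black squares) of the 24 protein-coding members with the most LKO counts, on a log axis, 1 library each, with 0 drawn at 0.5. The 4 genes at the top have over 1000 LKO counts, and CLIC3 at the bottom has 0 counts in shKDM4C and 48 in LKO.

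Enzymes of amino acid and choline metabolism followed. ABAT is the transaminase that breaks down GABA and had 31 counts in shKDM4C against 272 in LKO, a scaled level of 13.7% (interval 9.12% to 19.9%). ALDH5A1, the next enzyme of that pathway, had 128 counts in shKDM4C and 567 in LKO, yet over 17 tested genes of GABA and glutamate metabolism 4 were at least 2-fold lower and 3 higher, with a median log2 ratio of 0.060. CHDH, the mitochondrial enzyme that starts the oxidation of choline to betaine, had 24 counts in shKDM4C against 211 in LKO, a scaled level of 13.7% (interval 8.56% to 20.9%). Of 17 tested choline, glycine and one-carbon enzymes, 2 were at least 2-fold lower and 0 higher, and their median log2 ratio was -0.48. The one beside CHDH was DMGDH, dimethylglycine dehydrogenase, with 1 count in shKDM4C and 19 in LKO. CBS condenses serine with homocysteine, and it had 10 counts in shKDM4C against 81 in LKO. Its transcript is matched over its whole length, at 99.96% identity, by a second gene entry on chromosome 21 that GENCODE classes as an artifact. That entry had 0 counts in each library, and how reads matching both places were treated is not given. CBS was the only member among 33 tested genes of the ATF4 response and amino acid supply. Of these, 14 were at least 2-fold lower and 1 was higher, with a median log2 ratio of -0.59. Beside these lists, 7.49% of all tested genes were at least 2-fold lower and 7.83% higher. GGT6, of the gamma-glutamyltransferase family, had 10 counts in shKDM4C and 70 in LKO. NDUFA4L2, a relative of a respiratory chain subunit known for induction in hypoxia, had 7 in shKDM4C and 59 in LKO. LYRM9, named for its LYR motif, had 3 in shKDM4C and 23 in LKO.

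Genes of sugar chains and glucose uptake were also among the members. GCNT4 encodes a branching enzyme of mucin-type sugar chains and had 22 counts in shKDM4C and 149 in LKO, whereas its relative GCNT1 had 55 counts in shKDM4C and 82 in LKO and GCNT3 had 24 in shKDM4C and 1 in LKO. ST6GALNAC2, which adds sialic acid to such chains, had 2 counts in shKDM4C and 50 in LKO. FUT2, the secretor fucosyltransferase, had 4 counts in shKDM4C and 29 in LKO. Outside the members, FUT3 had 41 and 180 in the same order, and FUT1 had 284 and 418. SLC2A12, a glucose transporter gene, had 16 counts in shKDM4C against 107 in LKO. The far more abundant transporter SLC2A1 had 6959 counts in shKDM4C and 10256 in LKO, and SLC2A3 had 801 in shKDM4C and 261 in LKO. The relatives named here did not meet the rule, which only 0.405% of protein-coding candidates met. They were chosen after their values were seen, so this is no result about these families.

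Ubiquitin ligases, receptors and kinases made up a further set. NEURL1B, a ubiquitin ligase that acts on Notch ligands, had 45 counts in shKDM4C against 392 in LKO, a scaled level of 13.8% (interval 9.89% to 18.8%), while NEURL1 had 1355 in shKDM4C and 1588 in LKO. RNF208, a RING finger ligase, had 21 counts in shKDM4C and 146 in LKO. PAQR8, a membrane receptor for progesterone, had 15 counts in shKDM4C and 144 in LKO, and its relative PAQR7 had 212 and 620 in the same order. VIPR1, a receptor for vasoactive intestinal peptide, had 10 counts in shKDM4C and 86 in LKO. MAP2K6, a kinase that activates p38, had 3 counts in shKDM4C against 70 in LKO, a scaled level of 5.15% (interval 1.04% to 15.7%), whereas MAP2K3, which acts on the same kinase, had 3579 in shKDM4C and 2240 in LKO. EDARADD, the adaptor of the ectodysplasin receptor, had 5 counts in shKDM4C and 65 in LKO. The receptor gene EDAR had 6 counts in shKDM4C and 3 in LKO. The rest of the set had few reads. SBK1, a protein kinase, had 5 counts in shKDM4C and 44 in LKO. CDK5R2, an activator of the neuronal kinase CDK5, had 2 in shKDM4C and 24 in LKO. NRG4, a ligand of the ErbB4 receptor, had 3 in shKDM4C and 20 in LKO, where NRG1 had 4439 and 6651 in the same order. GBP6, a guanylate-binding protein of an interferon-induced family, had 4 counts in shKDM4C and 29 in LKO, and the deubiquitinase OTUD7A had 2 in shKDM4C and 27 in LKO.

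Another 9 members were scaffold, vesicle and cytoskeleton genes, several of them known from neurons. The groups were drawn up with the values known, and the share of such genes among all candidates was not counted. SHANK2, a postsynaptic scaffold protein, had 46 counts in shKDM4C against 307 in LKO, a scaled level of 17.99% (interval 12.9% to 24.6%), and SHANK3 had 238 in shKDM4C and 465 in LKO. SCAMP5, a secretory carrier membrane protein, had 18 counts in shKDM4C and 120 in LKO, at the limit of the rule, while SCAMP1 had 4194 in shKDM4C and 4707 in LKO. TMOD1, which caps the pointed ends of actin filaments and belongs to the red cell membrane skeleton, had 1 count in shKDM4C against 33 in LKO, a scaled level of 3.64% (interval 0.0894% to 21.7%). The abundant TMOD3 had 9192 in shKDM4C and 10723 in LKO. Over all tested genes 7.49% were at least 2-fold lower and 7.83% higher. Of 19 tested genes of the red cell membrane and heme, a list chosen with earlier results known, 6 were lower and 0 higher. Their median log2 ratio was -0.61. Among the 6, ADD2, an adducin subunit, had 223 counts in shKDM4C and 1263 in LKO. The other 6 members of this group had 20 to 56 LKO counts. The actin-like gene ACTL8 had 6 counts in shKDM4C and 56 in LKO, and PFN4, a profilin, had 1 in shKDM4C and 22 in LKO. TTLL1, which adds glutamate chains to tubulin, had 5 in shKDM4C and 42 in LKO. IQCN, named for its IQ motif, had 4 in shKDM4C and 41 in LKO, and PALMD had 1 in shKDM4C and 25 in LKO. PPFIA4, a liprin of presynaptic terminals, had 3 in shKDM4C and 20 in LKO, whereas PPFIA1 had 7729 in shKDM4C and 9875 in LKO.

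Ion channels and pumps grouped 4 further members, with 0 to 6 counts in shKDM4C and 39 to 74 in LKO. CLIC3, of the chloride intracellular channel family, had 0 counts in shKDM4C and 48 in LKO, at least 13.3-fold lower against the floor of 3 counts, with an upper bound of the counting interval at 9.59% of LKO, whereas CLIC1 had 8394 in shKDM4C and 9330 in LKO. KCNIP3, a calcium sensor that binds potassium channels, had 5 counts in shKDM4C and 69 in LKO. LYNX1, which modulates nicotinic receptors, had 6 in shKDM4C and 74 in LKO, and FXYD3, a regulator of the sodium pump, had 3 in shKDM4C and 39 in LKO. Of the secreted proteins, CCN5 had 5 counts in shKDM4C and 42 in LKO, set against CCN2 of the same family with 4498 in shKDM4C and 1048 in LKO, and RARRES2, the chemokine-like protein chemerin, had 2 in shKDM4C and 31 in LKO. The plasma glycoprotein HRG had 4 counts in shKDM4C and 33 in LKO. PAPPA2, a protease that cleaves binding proteins of insulin-like growth factors, had 2 in shKDM4C and 21 in LKO, and the surface protease TMPRSS4 had 3 in shKDM4C and 22 in LKO. C17orf113 and FAM221A, for which no role is given here, had 4 and 1 counts in shKDM4C, against 36 and 25 in LKO. The lists of keratinocyte differentiation, cytokines and NF-kB targets, interferon response, matrix genes and histone methylation enzymes held 13, 20, 28, 49 and 46 candidates and no member, which at a background of 0.532% is no result about these lists.

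**Figure D4:**
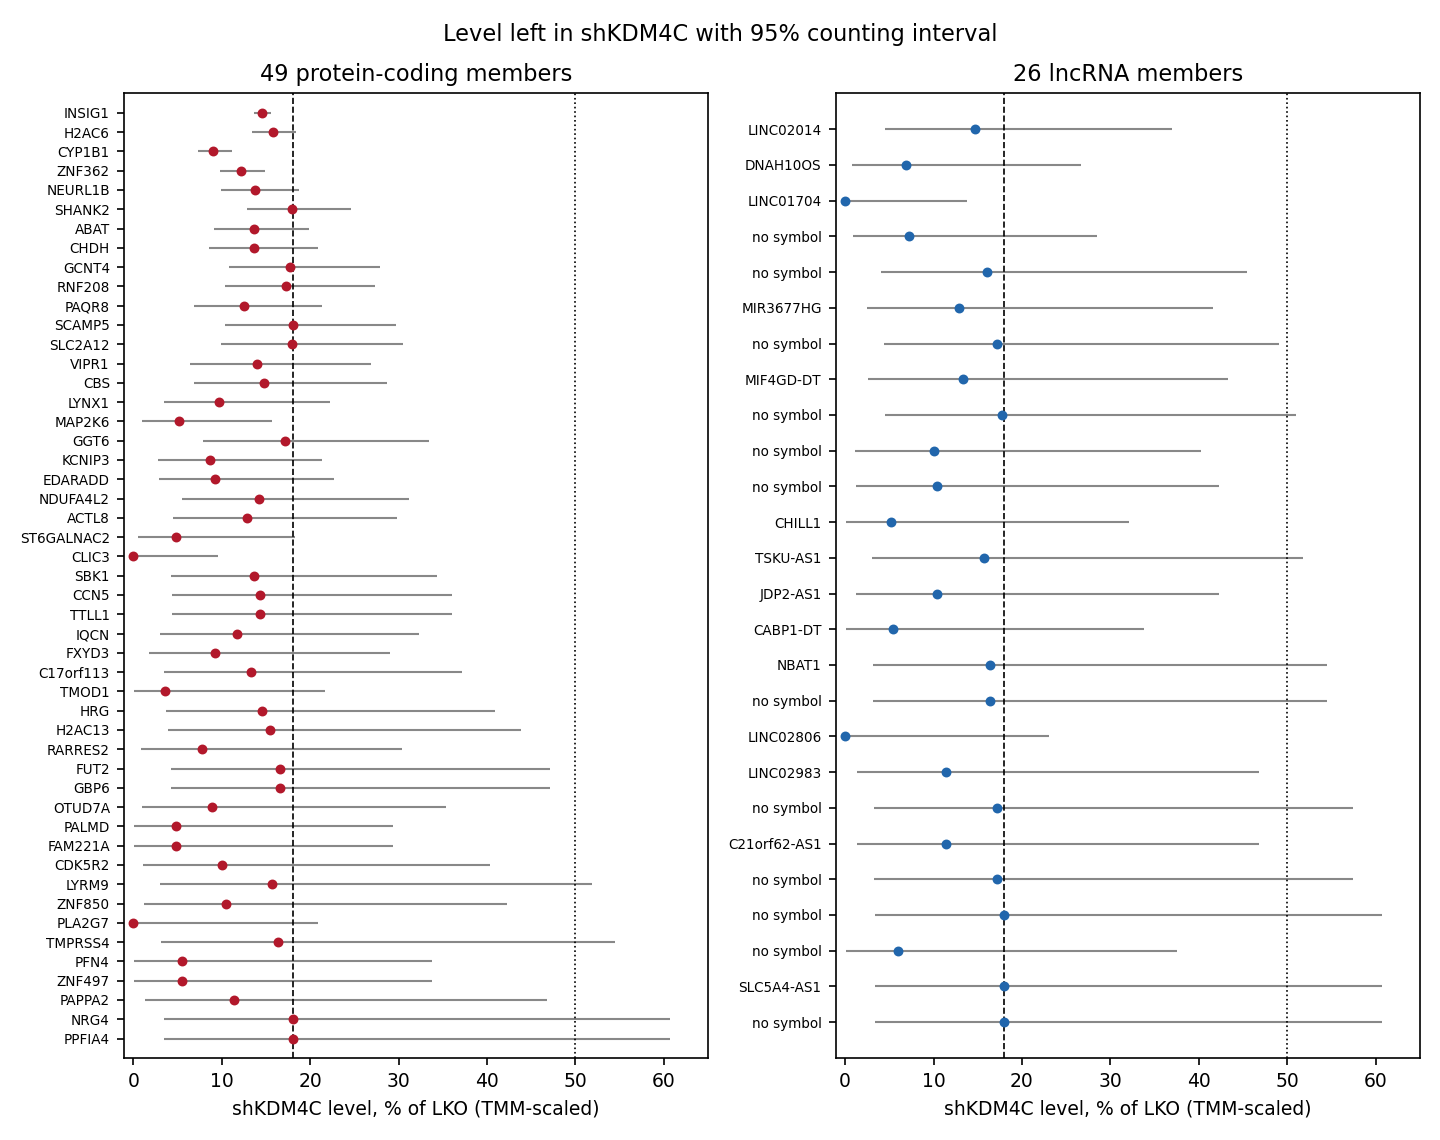
Level left in shKDM4C as a percent of LKO after TMM scaling (points), with 95% counting intervals (lines), for the 49 protein-coding members at the left and the 26 lncRNA members at the right, in order of LKO counts from the top. The dashed line is the raw limit of 15% on this scale (18.01%) and the dotted line is 50%, which the intervals of 13 members cross.

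The lncRNA members were all rare. LINC02014 had the most, with 5 counts in shKDM4C against 41 in LKO. DNAH10OS had 2 counts in shKDM4C and 35 in LKO, and ENSG00000251615, a gene without a symbol, had 2 in shKDM4C and 33 in LKO. LINC01704 had 0 counts in shKDM4C and 34 in LKO, at least 9.44-fold lower against the floor and with an upper bound of 13.8% of LKO, and LINC02806 had 0 in shKDM4C and 21 in LKO, at least 5.83-fold lower and with an upper bound of 23.1%. ENSG00000271795, MIR3677HG and MIF4GD-DT had 4, 3 and 3 counts in shKDM4C, against 30, 28 and 27 in LKO. An lncRNA gene without a symbol on chromosome 18 had 4 in shKDM4C and 28 in LKO, and one on chromosome 16 had 4 in shKDM4C and 27 in LKO. Over the 26, the counts ran from 0 to 5 in shKDM4C with a median of 3, and from 20 to 41 in LKO with a median of 23, and 12 have no symbol. Roles in these cells cannot be assigned to most of them from the annotation used.

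The intervals show how much of near loss rests on few reads. Of the 75 members, 56 had 5 or fewer shKDM4C counts. The upper bound of the scaled level stayed at or below 15% in 4 members and at or below 25% in 19. It was at or below 50% in 62, and the highest was 60.7%. That highest value belonged to members with 3 shKDM4C and 20 LKO counts, such as NRG4, the fewest LKO counts that the rule admits. The bounds come from the same counts that chose the members, so the rule itself limits how high they can be. Coverage of the intervals was not tested among genes that passed the rule, so the bounds are descriptions and no test of near loss. After TMM scaling 25 members had a level above 15%. The members just inside the limit with the most LKO counts were H2AC6, SHANK2, GCNT4, RNF208 and SCAMP5, at 13.2% of LKO or more in raw counts, with SCAMP5 exactly at 15%. Just outside it were DDIT4, a stress-induced inhibitor of mTORC1, with 135 counts in shKDM4C and 872 in LKO (15.5%), ANK1 with 109 and 677, CCDC92 with 97 and 590, H6PD with 84 and 547 and THEM6 with 62 and 401, each in the same order.

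The members were scattered over the genome. They lay on 21 of the 22 autosomes, with 9 on chromosome 1 and 0 of 610 candidates on chromosome 10, and the exact intervals of the shares overlapped between all chromosomes. Only 6 of the 75 (8%) had another member within 1 Mb, measured between lower genomic ends, and 11.03% of all candidates lay that near a member. These 6 formed 3 pairs. CLIC3 (chr9:136994608-136996568, minus strand) and RNF208 (chr9:137220247-137222240, minus strand) lay 226 kb apart, and of the 14 candidates between them 3 were at least 2-fold lower and 0 higher, with a median log2 ratio of -0.68. SCAMP5 and NRG4 lay 979 kb apart on chromosome 15 with 15 candidates between, of which 0 were at least 2-fold lower. ZNF850 and an lncRNA gene without a symbol lay 623 kb apart on chromosome 19.

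Neighbouring genes were also described. Of the 150 nearest candidates on either side of the members, 27 (18%) were at least 2-fold lower and 4 higher, and of the 87 within 100 kb, 21 (24.1%) were lower and 1 higher. Among all candidates outside the members 7.70% were lower, and among the 2188 nearest candidates within 100 kb of other candidates with under 50 LKO counts 6.35% were. Where the neighbour overlaps the member 9 of 26 were lower (34.6%), and where it does not 12 of 61 were (19.7%). Reads of overlapping genes cannot be told apart by the count table alone. No test was made of these shares, and neighbours are not independent of each other. Examples without overlap were CYSRT1 beside RNF208, with 24 counts in shKDM4C and 129 in LKO, ABCA2 beside CLIC3, with 126 and 555 in the same order, and THEM6 beside LYNX1. Overlapping ones were VIPR1-AS1, with 11 counts in shKDM4C and 29 in LKO, and JDP2, which shares 26 bases with JDP2-AS1 and had 157 in shKDM4C and 823 in LKO.

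**Figure D5:**
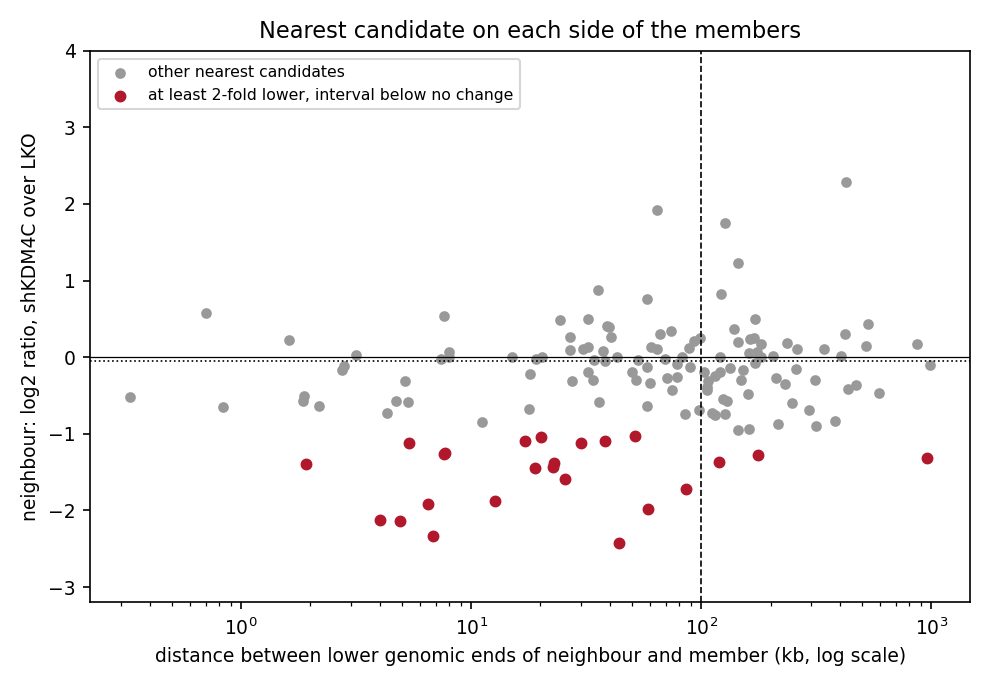
Log2 ratio (shKDM4C over LKO) of the nearest non-member candidate on each side of the members, against the distance between lower genomic ends in kb on a log scale, for the 144 neighbours within 1000 kb. Those at least 2-fold lower with an interval below no change (red, 24) gather left of the dashed line at 100 kb, and the dotted line is the median of all candidates outside the members (-0.055).

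Overlap with other genes limits what many of these counts mean. The library kit marks strand, but the strand setting of the counting is not given in the sources used here. Of the 75 members, 58 overlap another annotated gene, 50 on the opposite and 26 on the same strand, and 34 share exon bases with one. Such overlap was about as frequent in all candidates, at 77.3% of members and 72.2% of candidates for any overlap. Lying wholly within another gene was found in 29.3% of members and 10.1% of candidates, but in 28.4% of candidates with under 50 LKO counts. SLC2A12 shares 51.2% of its exon bases with TBPL1, which had 3244 counts in shKDM4C and 2112 in LKO. TMOD1 shares 45.3% with TSTD2 (1072 in shKDM4C, 1085 in LKO) and NRG4 38.2% with FBXO22 (1788 in shKDM4C, 2459 in LKO). In these 3 pairs the partner lies on the opposite strand and did not share the low level of the member. On the same strand, ST6GALNAC2 shares 39.8% with a chromosome 17 gene without a symbol (10 in shKDM4C, 10 in LKO). FXYD3 shares 38.1% with one on chromosome 19 (0 in shKDM4C, 0 in LKO). EDARADD shares 32.6% with the pseudogene ENO1P1 (0 in shKDM4C, 0 in LKO). Its transcript also matches ENO1 over 416 bases at up to 96.77% identity, a gene with 84259 counts in shKDM4C and 88348 in LKO. An lncRNA member inside TENM2, a gene with 6864 counts in shKDM4C and 19057 in LKO, had 3 in shKDM4C and 21 in LKO. DNAH10OS lies inside CCDC92, itself just outside the limit.

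Genes that overlap busy genes were also counted. Of 144 genes whose exons lie wholly inside exons of an opposite-strand gene with over 2000 LKO counts, 136 (94.4%) had 0 LKO counts, and of 53 on the same strand 42 (79.2%) had 0. Other genes shared no exon bases with such a busy gene but overlapped its span by at least their own exon length. They had a median of 2 LKO counts on either strand, with 36.7% at 0 on the opposite and 39.0% on the same strand. Not all of them need lie wholly inside an intron. Most genes lying wholly inside exons of such busy genes thus carried no counts. Whether they were silent or their reads were left uncounted cannot be told from these values. Near-identical copies elsewhere, at 95% identity or more over at least 50% of the transcript, were found for 3 members: CBS, H2AC13, which matches H2AC14 over 83.8% of its transcript, and an lncRNA gene without a symbol. H2AC14 had 7 counts in shKDM4C and 16 in LKO. Neither an overlap nor a copy was found for 14 members, INSIG1, H2AC6, GCNT4, RNF208, GGT6, ACTL8, CLIC3, IQCN, FUT2, GBP6, PALMD, PPFIA4, LINC01704 and ENSG00000251615.

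What the members shared in sequence was searched in promoters and in 3′ UTRs, as a description over genes. RefSeq promoters, 250 bases before to 50 after the start, matched 48 of the 75 members and 10609 candidates. CYP1B1 was not among the 48, so its promoter was not searched. TATAAA on either strand was in 11 of the 48 (22.9%), in 5.89% of candidate promoters and in 10.2% of those with under 50 LKO counts. Between 40 and 15 bases before the start, on the coding strand, it was in 6 of 48 (12.5%), namely GBP6, H2AC13, H2AC6, HRG, INSIG1 and NBAT1, in 1.62% of candidates and in 2.99% of those with under 50 LKO counts. Without the histone genes, 4 of 46 member promoters (8.70%) held it there. CCAAT was in 35.4% of member promoters, 36.6% of candidates and 32.9% of candidates with under 50 LKO counts. GCGTG was in 37.5% of member promoters, 50.5% of candidates and 43.0% of those low ones. CACGTG was in 6.25% of members, 9.80% of candidates and 6.403% of the low ones, and TGACTCA, the AP-1 site, in 6.25% of members, 3.30% of candidates and 5.76% of the low ones. GATA words, meaning AGATAA or AGATAG as well as TGATAA or TGATAG, were in 22.9% of member promoters, 14.7% of candidates and 22.8% of candidates with under 50 LKO counts. Protein-coding members spanned a median of 31.5 kb against 35.0 kb in protein-coding candidates, with a transcript GC content of 52.5% against 48.1%, and 52.8% in those with under 50 LKO counts.

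A hairpin can also act on other transcripts through short matches to its guide strand, mostly in 3′ UTRs. The study used a pair of KDM4C hairpins, and which of them the sequenced cells carried is not stated. Their target sites on the KDM4C transcript (chromosome 9) are shown because their words were searched in the members, with the bases that pair with guide positions 2 to 12 in capitals, the guide being taken as the reverse complement of the target:
shKDM4C#1: atacttggaTTACGAAGATTt
shKDM4C#2: gctatgagaAGCCCGAGAAAt
Any of the 5 overlapping words of 7 bases in the capitals of shKDM4C#1 was in the 3′ UTR of 8 of 49 protein-coding members (16.3%), in 17.9% of 12072 candidates and in 12.9% of those with under 50 LKO counts. For shKDM4C#2 it was in 7 of 49 members (14.3%), in 10.7% of candidates and in 9.04% of those with under 50 LKO counts. Those 7 were CHDH, FXYD3, GGT6, LYNX1, OTUD7A, SBK1 and ZNF362, and the 8 were EDARADD, GBP6, GCNT4, INSIG1, MAP2K6, NEURL1B, OTUD7A and SHANK2. The longest exact run shared by a member's transcript and either target was 11 bases, in CHDH, GBP6 and SBK1 for shKDM4C#2. Median 3′ UTR length was 1785 bases in these members and 1359 in candidates. The part of such matches in the low counts was not tested.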

How the data were processed

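RNA of SAS cells infected with shKDM4C or control pLKO.1 (LKO) was sequenced, with 1 library per condition. The deposited file used here holds raw counts, whole numbers of reads per gene, which the authors made by aligning reads to GRCh38 (hg38) with HISAT2 and counting them with featureCounts. Tool versions, the annotation and the settings for strand and multi-mapped reads were not given in these sources. The deposited table of the authors' own comparison was not used. GENCODE v44 gave symbols, biotypes, coordinates and exon lengths, and it held 58472 of the 58884 gene IDs. Members and gene lists were chosen with earlier results of these data known, and role groups and family relatives after their values were seen.

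TMM factors were taken from edgeR 4.0.16 under R 4.3.3, using the 18078 genes whose counts over the pair of libraries sum to 20 or more. Library totals and DESeq2 1.42.0 size factors (median of ratios) served as alternatives. Log2 ratios used a prior count of 0.5, and RPKM divided the TMM-scaled CPM by the length of the exon union. Intervals are exact conditional binomial (Clopper-Pearson) intervals at 95%. Their coverage was tested on simulated Poisson counts, which hold counting error only, and not among genes that passed the rule. A gene with 0 counts was set to a floor of 3 counts, and folds against that floor take the LKO count as exact. Copies were searched among GENCODE transcripts with blastn 2.17.0. No p-value was computed, since each condition has 1 library. Named are the 15 protein-coding and 8 lncRNA members with the most LKO counts, members of gene lists and of pairs within 1 Mb, members at 0, and the 5 genes on each side of the 15% limit. Genes without a symbol are named by ID in 2 cases only and otherwise described by chromosome, and all other genes were named after their values were seen. Scripts ran in Python 3.11.15 (numpy 2.4.6, pandas 2.3.3, scipy 1.17.1, matplotlib 3.10.9).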

Additional observations from a re-analysis of the deposited data

How the results depend on the processing

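The number of members, 75, depends mostly on the thresholds. It was 190 with at least 10 LKO counts, 23 with at least 50 and 13 with at least 100, and it was 32 with shKDM4C at most 10% of LKO and 166 at most 20%. Leaving out genes that overlap another annotated gene kept 17 members. With TMM-scaled counts 50 of the 75 remained, with totals 54, with median of ratios 50, and with an upper bound of at most 50% 62. Within 250 kb in place of 1 Mb, 2 members in place of 6 had another member nearby. The exchanged rule took 123 genes with TMM-scaled counts in place of 97. A prior count of 5 moved the log2 ratio of 4 members outside their counting interval and turned none round, and library totals and median of ratios moved none of the 75 that far. With that prior the median log2 ratio of the members was -1.97 in place of -2.84, so its size depends on the prior. Depth limits the members with few counts most: at 20 LKO counts, 3 or fewer shKDM4C counts meet the rule. No paired analysis was possible because each condition has 1 library.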

Other observations

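Outside the autosomal protein-coding and lncRNA genes, 20 further rows of the table met both count limits. They were 10 pseudogenes, 7 genes of other biotypes, 2 genes of the sex chromosomes and 1 ID not found in GENCODE v44.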
